A study of Bos taurus with 6 samples.

Results

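The 50 genes described here encode the coats, cargo receptors, membrane-fusion proteins and tethers that move proteins between the endoplasmic reticulum (ER) and the Golgi. They were chosen by gene name from the count table, with earlier results of these data known. All 50 were found among its 36577 loci and passed the filter on low counts, as did 15576 loci in all. RNA was sequenced from wild-type primary hepatocytes, the main cells of the liver, taken from fasted healthy female calves aged 1 day. The PA + 3-IAA group (3 libraries) received 400 µmol/L palmitic acid, a saturated fatty acid, with 200 µmol/L 3-IAA, which the study's title spells out as indole-3-acetic acid, and the PA + DMSO group (3 libraries) received the same palmitic acid with the solvent DMSO. Every cell therefore had palmitic acid, and no library without it was analysed here. The study's title names ER stress, and the comparison bears on the effect of 3-IAA in hepatocytes under a fatty acid load. No label ties a replicate to a calf or a culture, so the p-values rest on the spread between libraries, which may be technical.

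Newly made secretory proteins leave the ER in vesicles coated with COPII. The GTPase SAR1 is switched on by PREB (also called SEC12) and recruits SEC23 and SEC24, and SEC24 binds the cargo. SEC13 and SEC31 then form an outer cage. COPI, a coat of coatomer subunits recruited by ARF GTPases, carries escaped ER proteins and cargo receptors back. Hepatocytes export most plasma proteins and lipoproteins along this route, and several of its genes are known targets of the unfolded protein response, the ER's programme against misfolded protein.

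The libraries held 16580723 to 22562450 counts, and no member had fewer than 188 expected counts in any library. The first principal component of log2 CPM (normalised counts scaled to a common library total) held 78.5% of the variance. All PA + 3-IAA libraries scored 41.2 to 41.8 there, whereas PA + DMSO replicates 1 and 2 scored -54.0 and -54.7 and PA + DMSO replicate 3 scored -15.7, apart from its group. Counts are therefore also given without that library. Of 8 hepatocyte markers, 7 were higher with 3-IAA and none was lower, and their summed TPM (transcript abundance corrected for gene length) was 14923 to 16411 in PA + 3-IAA and 10725 to 11904 in PA + DMSO. Markers of other cells were also present. The 6 endothelial markers summed to 46.4 to 53.6 TPM in PA + 3-IAA and 16.6 to 31.9 TPM in PA + DMSO, with 4 called higher, and the 7 macrophage markers to 89.3 to 101 TPM in PA + 3-IAA and 70.3 to 78.1 TPM in PA + DMSO, with 3 called higher. The 7 stellate and fibroblast markers summed to 758 to 804 TPM in PA + 3-IAA and 735 to 834.5 TPM in PA + DMSO, the 5 cholangiocyte markers to 1331 to 1390 TPM in PA + 3-IAA and 673 to 858 TPM in PA + DMSO, and the 4 lymphocyte markers to 4.55 to 6.21 TPM in PA + 3-IAA and 4.91 to 5.91 TPM in PA + DMSO. Most of the cholangiocyte sum was SPP1, at 1168 to 1225 TPM in PA + 3-IAA and 553 to 728 TPM in PA + DMSO. Of these lists, 2 stellate markers were called lower, and no lymphocyte marker passed (2 of the 4 were tested). Of the cholangiocyte markers, 2 were called higher (KRT7 and SPP1) and 1 lower (SOX9), while KRT19 and EPCAM did not pass. No marker was at 0 in every library, and the part of other cells in the changes below was not tested.

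Transcripts of the transport genes were mostly lower with 3-IAA. In edgeR's quasi-likelihood test, 40 of the 50 members (80.0%) fell at a Benjamini-Hochberg adjusted p under 0.05 over all genes tested, 2 rose and 8 did not pass. Among all genes tested 25.8% were called lower and 25.4% higher, 51.2% in all. The median log2 fold change of the members was -0.48, against 0.00 over all genes tested. The falls were moderate: 19 members were lower by at least 1.5-fold (38.0%, against 11.7% of all genes tested) and 4 by at least 2-fold (5.41% of all genes tested), which were STX5, PREB, SEC24D and SEC23B. The CPM of the groups did not overlap for 41 members that were lower and 5 that were higher in PA + 3-IAA, whereas 62.5% of all genes tested had no overlap in either direction. Without PA + DMSO replicate 3, TMED4 was also called lower and SEC24B, TMED1 and COPG2 also higher, so that 41 were lower, 5 higher and 4 not called, with 29.7% of all genes lower and 30.9% higher, 60.5% in all. In a limma fit of log2(TPM + 1), 38 members were called lower and 4 higher (TMED1, TMED5, COPG2 and GOSR1), against 20% of all genes lower and 28.7% higher, 48.7% in all. In bulk RNA, fewer cells of a type and less RNA per cell cannot be told apart.

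**Figure D1:**
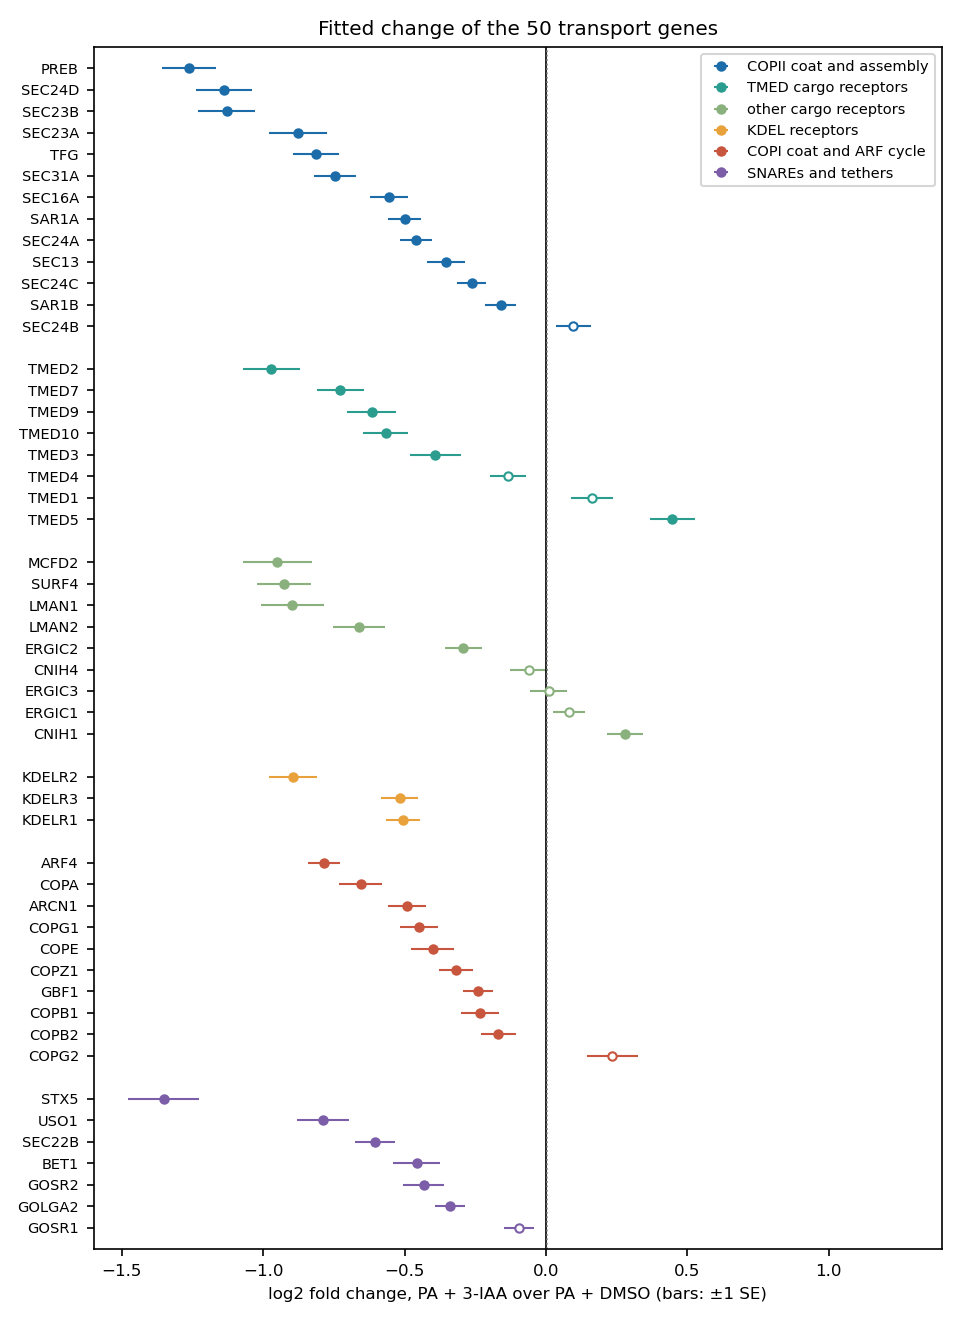
Fitted log2 fold change of PA + 3-IAA over PA + DMSO (horizontal axis, bars ± 1 SE) for the 50 members, grouped by role. Filled points passed the test at an adjusted p under 0.05 and open points did not; 40 filled points lie below 0 and 2, TMED5 and CNIH1, above it.

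The COPII genes, which drive the outward step, fell in 12 of 13 cases, with a median log2 fold change of -0.56 and a range of -1.26 to 0.10. PREB, which loads SAR1 with GTP and so starts coat assembly, had 21.7, 22.3 and 21.6 CPM in PA + 3-IAA, against 55.9, 57.1 and 44.7 CPM in PA + DMSO. That is a 2.40-fold fall (log2 -1.26, SE 0.09, adjusted p = 6.4e-05), and the groups did not overlap. SEC24D, one of the cargo-binding subunits, had 228, 236 and 240 CPM in PA + 3-IAA, against 557, 562 and 433 CPM in PA + DMSO, a 2.20-fold fall (SE 0.10, adjusted p = 7.05e-05). SEC23B, which in humans is mutated in a congenital anaemia, had 157, 163 and 164 CPM in PA + 3-IAA, against 382, 383 and 293 CPM in PA + DMSO, a 2.19-fold fall (SE 0.10, adjusted p = 7.58e-05). In all 3 genes the lowest PA + DMSO library was replicate 3, and it still lay well above every PA + 3-IAA library.

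The outer cage was unevenly affected. SEC31A had 216, 216 and 221 CPM in PA + 3-IAA and 384, 387 and 325 CPM in PA + DMSO, a 1.68-fold fall (adjusted p = 9.4e-05). Its partner SEC13, which also serves in the nuclear pore, had 53.7, 55.9 and 58.3 CPM in PA + 3-IAA and 69.3, 77.1 and 68.0 CPM in PA + DMSO, a 1.28-fold fall (adjusted p = 0.00195). TFG, which organises ER exit sites, fell 1.76-fold and the exit-site scaffold SEC16A 1.47-fold. The groups did not overlap in any of these 4 genes.

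Within COPII, paralogs (related forms of one protein) changed by different amounts. Of SEC24, which has 4 forms, SEC24D fell most, SEC24A (1.37-fold) and SEC24C (1.20-fold) fell less, and SEC24B did not pass (log2 0.10, SE 0.06, adjusted p = 0.228). SEC24B had 81.1, 86.5 and 78.4 CPM in PA + 3-IAA, overlapping its 73.4, 76.2 and 80.6 CPM in PA + DMSO. Per length, SEC24D was the most abundant of the 4 in every library. Its share of their summed TPM was 49.7%, 49.8% and 50.7% in PA + 3-IAA, against 67.6%, 67.2% and 61.6% in PA + DMSO, a difference of -15.4 percentage points. The share of SEC24B was 16.0% ± 0.9 in PA + 3-IAA and 8.98% ± 1.30 in PA + DMSO (SD, n = 3 each). None of these shares overlapped between the groups, which gives an exact two-sided permutation p of 0.1, the smallest that 3 against 3 libraries allow.

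SEC23A, the other SEC23, had 144, 147 and 146 CPM in PA + 3-IAA and 300, 282 and 221 CPM in PA + DMSO, a 1.84-fold fall. Since both forms fell, the share of SEC23B in their summed TPM moved little, at 63.1% ± 0.6 in PA + 3-IAA and 67.7% ± 0.8 in PA + DMSO (SD, n = 3 each). The summed SEC23 level was 124 TPM in PA + 3-IAA and 250 TPM in PA + DMSO. SAR1A fell 1.41-fold, with 206, 209 and 216 CPM in PA + 3-IAA and 307, 300.2 and 284 CPM in PA + DMSO. SAR1B, which in humans is mutated in chylomicron retention disease, had 224, 227 and 233 CPM in PA + 3-IAA and 265, 252 and 248 CPM in PA + DMSO (log2 -0.16, SE 0.06, adjusted p = 0.0356). That call was lost when any single library other than PA + DMSO replicate 3 was left out, as well as with library-total scaling, without a filter on low counts, and with a replicate block. The share of SAR1A in the 2 forms was 62.4% ± 0.6 in PA + 3-IAA and 66.9% ± 0.6 in PA + DMSO. In all, 12 shares of paralogs were compared and each had a permutation p of 0.1, so 0.1 is also their adjusted value.

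**Figure D2:**
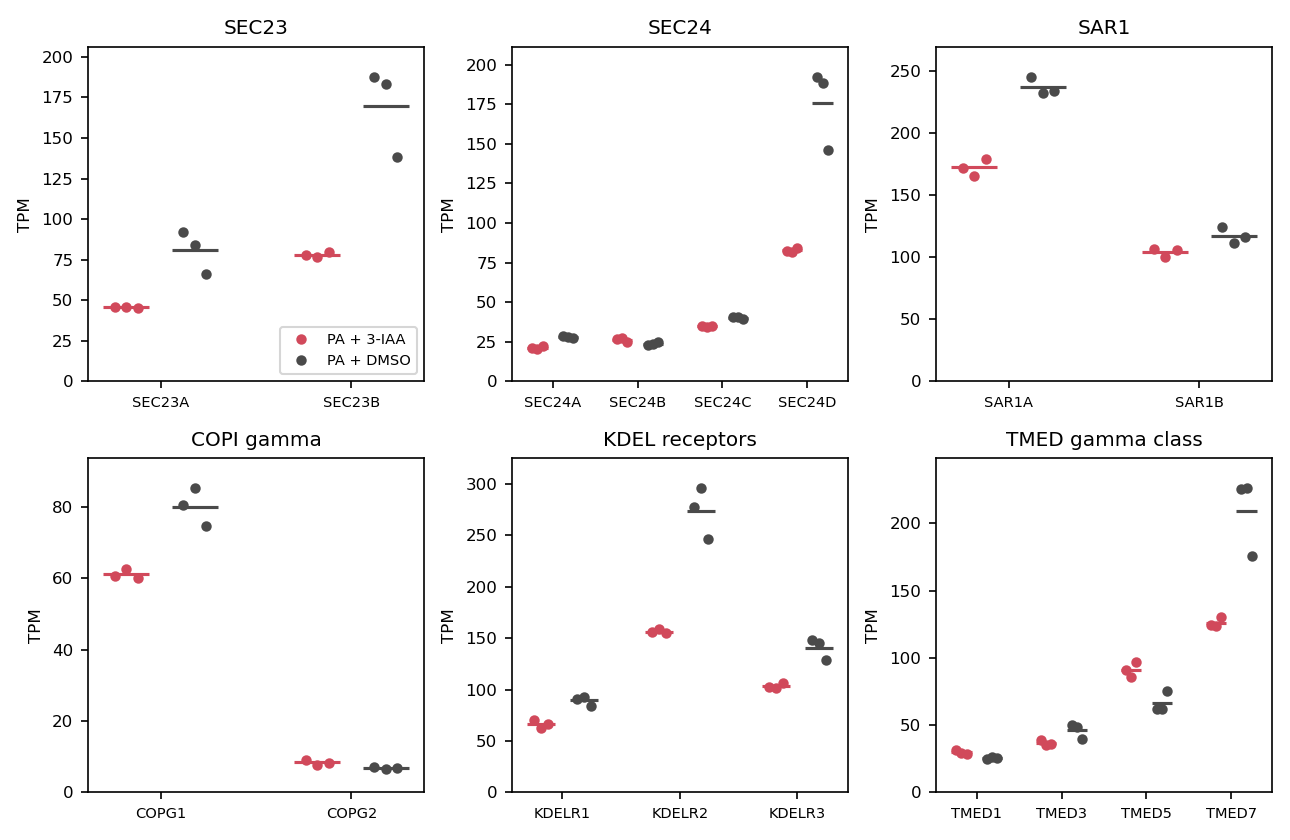
TPM per library (vertical axes, starting at 0) for paralog families, PA + 3-IAA in red left of PA + DMSO in grey, with lines at the group means. SEC24D and TMED7 are well below PA + DMSO in every PA + 3-IAA library, while SEC24B is close between the groups and TMED5 is higher in PA + 3-IAA.

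The COPI genes, which run the returning step, also fell, in 9 of 10 cases, with a smaller median log2 fold change of -0.36 and a range of -0.78 to 0.23. ARF4, a GTPase of the ARF family and the most abundant of these transcripts per length, had 161, 160 and 163 CPM in PA + 3-IAA, against 283, 289 and 264 CPM in PA + DMSO, a 1.72-fold fall (log2 -0.78, SE 0.06, adjusted p = 6.4e-05). GBF1, which activates ARF at the early Golgi, had 90.5, 90.2 and 94.2 CPM in PA + 3-IAA and 107, 107 and 110 CPM in PA + DMSO, a 1.18-fold fall. PA + DMSO replicate 3 was the lowest of its group for ARF4 and the highest for GBF1, the only one of the 40 members that fell in which it was not below both others.

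The subunits of coatomer, which assemble in equal numbers, did not change equally. COPA had 342, 336 and 347 CPM in PA + 3-IAA and 566, 572 and 477 CPM in PA + DMSO, a 1.58-fold fall (SE 0.08, adjusted p = 0.000178). ARCN1, the delta subunit, had 248, 248 and 262 CPM in PA + 3-IAA and 357, 378 and 329 CPM in PA + DMSO, a 1.41-fold fall (adjusted p = 0.00034). COPE and COPZ1, the epsilon and zeta subunits, fell 1.32-fold and 1.25-fold. The beta subunits changed least among those that fell. COPB1 had 223, 246 and 232 CPM in PA + 3-IAA and 286, 282 and 256 CPM in PA + DMSO (log2 -0.23, SE 0.07, adjusted p = 0.015), and lost its call without PA + 3-IAA replicate 1 or 3, without PA + DMSO replicate 1 or 2, or with scaling by library total. COPB2 had 211, 229 and 221 CPM in PA + 3-IAA and 253, 257 and 234 CPM in PA + DMSO (log2 -0.17, SE 0.06, adjusted p = 0.0445), and lost its call in 10 of 14 alternatives, among them each single library left out except PA + DMSO replicate 3.

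The gamma subunit comes in 2 forms, of which 1 fell and the other did not pass. COPG1 had 101, 109 and 103 CPM in PA + 3-IAA and 142, 154 and 133 CPM in PA + DMSO, a 1.37-fold fall (adjusted p = 0.000573). COPG2, the rarest of all 50 members per length, had 15.5, 13.6 and 14.4 CPM in PA + 3-IAA and 12.8, 11.8 and 12.3 CPM in PA + DMSO. Its 3 PA + 3-IAA libraries were all higher; it did not pass (log2 0.23, SE 0.09, adjusted p = 0.0533), but was called without PA + DMSO replicate 3 (adjusted p = 0.0431), with library-total scaling, with the strict filter and on log2(TPM + 1). COPG1 made up 87.9% ± 1.1 of the summed TPM of both forms in PA + 3-IAA and 92.1% ± 0.7 in PA + DMSO (SD, n = 3 each).

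The outward and returning steps were set side by side by summed TPM, as a description without a test. The 13 COPII genes summed to 882, 860 and 894 TPM in PA + 3-IAA, against 1457, 1415 and 1237 TPM in PA + DMSO, 35.9% lower. The 10 COPI genes summed to 1190, 1154 and 1186 TPM in PA + 3-IAA, against 1680, 1665 and 1521 TPM in PA + DMSO, 27.5% lower. The ratio of COPII to COPI was 0.741, 0.745 and 0.754 in PA + 3-IAA and 0.867, 0.850 and 0.813 in PA + DMSO, so the groups did not overlap and the mean ratio in PA + 3-IAA was 0.885 times that in PA + DMSO. ARF4 carried much of the COPI sum. With the 8 coatomer subunits alone, the returning step was at 0.80 times its level in PA + DMSO, and COPII to coatomer was 1.17, 1.16 and 1.19 in PA + 3-IAA, against 1.49, 1.47 and 1.43 in PA + DMSO. In the median of fitted log2 fold changes the difference of COPII minus COPI was -0.19, and the ranges of the 2 steps overlapped. The 3 KDEL receptors, which hand escaped ER proteins to COPI, are in neither sum. Their summed TPM was 35.1% lower and their median log2 fold change was -0.52, so the smaller fall applies to the COPI genes summed here only.

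**Figure D3:**
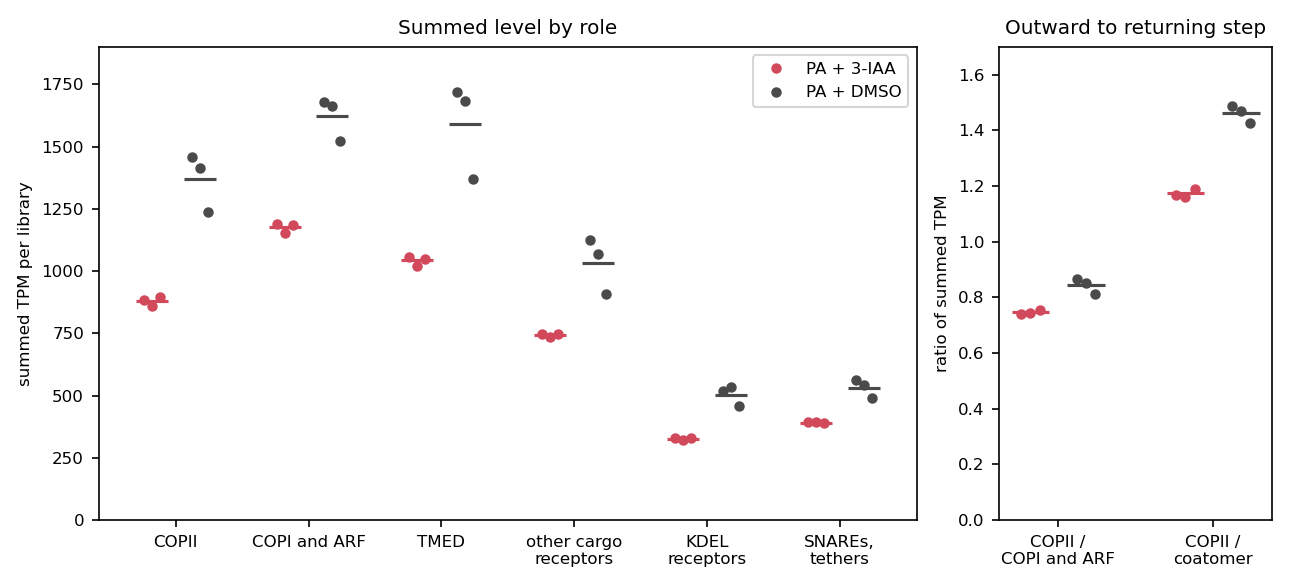
Left, summed TPM per library by role (vertical axis starts at 0); right, the ratio of the summed COPII genes to the COPI and ARF genes and to coatomer alone. Points are libraries, PA + 3-IAA in red left of PA + DMSO in grey, lines are group means, and no pair of groups overlaps.

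Cargo receptors of the TMED (p24) family cycle between ER and Golgi in both coats. Of 8 members, 5 fell and 1 rose, with a median of -0.48. TMED2, the only member of its beta class, had 451, 465 and 460 CPM in PA + 3-IAA, against 979, 974 and 743 CPM in PA + DMSO, a 1.96-fold fall (SE 0.10, adjusted p = 0.000131). TMED10, the delta member and a partner of TMED2, had 255, 263 and 271 CPM in PA + 3-IAA and 406, 422 and 343 CPM in PA + DMSO, a 1.48-fold fall. TMED9 fell 1.53-fold, whereas TMED4, of the same alpha class, did not pass (log2 -0.13, adjusted p = 0.106) except without PA + DMSO replicate 3.

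Of the gamma class, 4 genes are members, of which 2 fell, 1 rose and 1 did not pass. TMED7 had 190, 197 and 199 CPM in PA + 3-IAA and 340, 350 and 280 CPM in PA + DMSO, a 1.66-fold fall (SE 0.08, adjusted p = 0.000164), and TMED3 fell 1.31-fold. TMED5 rose instead, with 215, 226 and 231 CPM in PA + 3-IAA, against 156, 152 and 185 CPM in PA + DMSO (1.36-fold, log2 0.45, SE 0.08, adjusted p = 0.00143). Its PA + DMSO replicate 3 was again the library of that group nearest to PA + 3-IAA. TMED1 had 25.6, 24.9 and 23.4 CPM in PA + 3-IAA and 21.0, 22.7 and 22.3 CPM in PA + DMSO, higher in every PA + 3-IAA library but not past the test (log2 0.16, SE 0.07, adjusted p = 0.0883). Of the summed TPM of these 4 genes, without TMED6, which is not a member, TMED7 held 44.4% ± 0.9 in PA + 3-IAA and 60.0% ± 4.0 in PA + DMSO, and TMED5 held 32.1% ± 1.0 in PA + 3-IAA and 19.3% ± 3.9 in PA + DMSO (SD, n = 3 each).

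Of the 9 other cargo receptors 5 fell and 1 rose, with a median of -0.29. Those that fell most are receptors for soluble secretory proteins. LMAN1 and MCFD2 form the receptor that in humans carries coagulation factors V and VIII out of the ER. LMAN1 had 193, 195 and 202 CPM in PA + 3-IAA and 408, 393 and 297 CPM in PA + DMSO, a 1.86-fold fall (SE 0.11, adjusted p = 0.000332). MCFD2 had 105, 106 and 104 CPM in PA + 3-IAA and 226, 221 and 161 CPM in PA + DMSO, a 1.93-fold fall (SE 0.12, adjusted p = 0.000481). The partners thus changed by similar amounts, and in both PA + DMSO replicate 3 was well below its group.

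SURF4, which in mouse liver is needed for lipoprotein export, had 157, 160 and 167 CPM in PA + 3-IAA and 325, 336 and 257 CPM in PA + DMSO, a 1.9-fold fall (SE 0.10, adjusted p = 0.000122). LMAN2, a lectin of the same family as LMAN1, fell 1.58-fold. The ERGIC proteins changed little: ERGIC2 fell 1.22-fold (log2 -0.29, adjusted p = 0.00514), while ERGIC1 (log2 0.08, adjusted p = 0.26) and ERGIC3 (log2 0.01, adjusted p = 0.921) did not pass. ERGIC2 did not pass in the fit on log2(TPM + 1) (adjusted p = 0.0527). Of the cornichon receptors, CNIH4 did not pass (log2 -0.06, adjusted p = 0.474). CNIH1 had 108, 110 and 109 CPM in PA + 3-IAA and 83.7, 90.2 and 95.6 CPM in PA + DMSO, and rose 1.21-fold (log2 0.28, SE 0.06, adjusted p = 0.0045). On the TPM scale CNIH1 was 59.0, 61.5 and 58.4 in PA + 3-IAA and 57.8, 53.4 and 52.2 in PA + DMSO, and the fit on log2(TPM + 1) did not call it (log2 0.13, adjusted p = 0.0986).

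All 3 KDEL receptors, which catch escaped ER-resident proteins by their carboxy-terminal signal and hand them to COPI, fell. KDELR2 had 137, 146 and 140 CPM in PA + 3-IAA, against 276, 283 and 227 CPM in PA + DMSO, a 1.86-fold fall (SE 0.09, adjusted p = 7.98e-05). KDELR3 had 65.4, 66.4 and 67.3 CPM in PA + 3-IAA and 98.9, 99.2 and 86.8 CPM in PA + DMSO, a 1.43-fold fall. KDELR1 had 69.5, 64.4 and 67.3 CPM in PA + 3-IAA and 96.0, 99.6 and 90.1 CPM in PA + DMSO, a 1.42-fold fall. Their summed level was 326 ± 3.3 TPM in PA + 3-IAA and 503 ± 38.8 TPM in PA + DMSO (SD, n = 3 each), and KDELR2 held 47.9% ± 1.0 of it in PA + 3-IAA and 54.3% ± 1.0 in PA + DMSO. HSPA5 (BiP), an abundant chaperone that carries this signal, had 1125, 1157 and 1168 CPM in PA + 3-IAA and 26743, 26685 and 16126 CPM in PA + DMSO. XBP1, which switches on many genes of that stress programme, had 163, 175 and 168 CPM in PA + 3-IAA and 371, 387 and 302 CPM in PA + DMSO. These are RNA levels of the whole gene, and the activity of XBP1 was not tested.

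Among the SNAREs, which fuse vesicles with their target membrane, STX5 changed most of all 50 members. It had 14.2, 14.9 and 16.7 CPM in PA + 3-IAA, against 44.4, 40.7 and 32.0 CPM in PA + DMSO, a 2.55-fold fall (log2 -1.35, SE 0.12, adjusted p = 8.75e-05). STX5 pairs with GOSR2, BET1 and SEC22B in the fusion of ER-derived vesicles, and all 4 fell. SEC22B had 105, 113 and 112 CPM in PA + 3-IAA and 175, 176 and 152 CPM in PA + DMSO, a 1.52-fold fall, while BET1 fell 1.37-fold and GOSR2 1.35-fold. GOSR1, which acts with STX5 within the Golgi, did not pass (log2 -0.10, SE 0.05, adjusted p = 0.158). On the TPM scale GOSR1 differed in the other direction, with 39.3, 39.1 and 42.4 in PA + 3-IAA and 36.9, 35.0 and 34.8 in PA + DMSO, and the fit on log2(TPM + 1) called it higher (log2 0.17, adjusted p = 0.0397).

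The tethers catch vesicles before fusion. USO1 (p115) had 234, 231 and 233 CPM in PA + 3-IAA and 441, 423 and 341 CPM in PA + DMSO, a 1.73-fold fall (SE 0.09, adjusted p = 0.000167). GOLGA2 (GM130), to which USO1 binds on the Golgi, had 92.2, 87.6 and 88.2 CPM in PA + 3-IAA and 114, 114 and 112 CPM in PA + DMSO, a 1.26-fold fall (SE 0.05, adjusted p = 0.000731). The 3 PA + DMSO libraries of GOLGA2 stood close together (113 ± 1.1 CPM, SD, n = 3). So did those of other members, such as GOSR1 (59.1 ± 0.6 CPM) and ERGIC1 (39.0 ± 0.4 CPM).

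**Figure D4:**
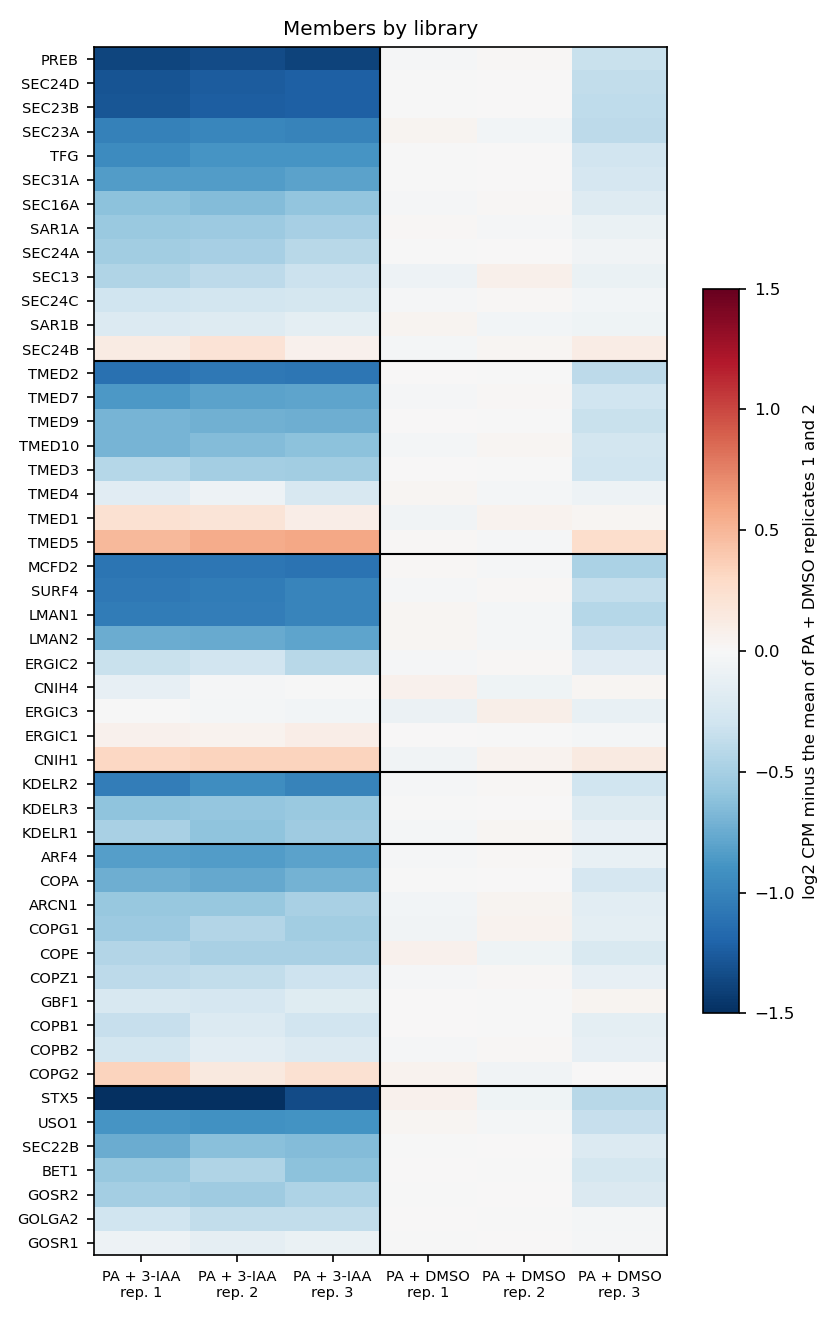
Colour shows log2 CPM minus the mean of PA + DMSO replicates 1 and 2 for each member (rows, by role as in the plot of fold changes) and library (columns, PA + 3-IAA left). PA + DMSO replicate 3 is paler than the PA + 3-IAA libraries and differs from replicates 1 and 2 in the same direction for most members.

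PA + DMSO replicate 3 lay between the groups in nearly every member that fell. In 39 of the 40 it was below PA + DMSO replicates 1 and 2 and above all PA + 3-IAA libraries, as it was for 3277 of the 4015 genes called lower. For the 21 members whose PA + 3-IAA libraries lay at least 1.5-fold below PA + DMSO replicates 1 and 2, replicate 3 kept between 54.3% and 85.9% of that gap on the log2 scale, with a median of 65.3%. For HSPA5 it kept 84.0% and for XBP1 72.0%. Without this library the median log2 fold changes were -0.61 for COPII, -0.42 for COPI and -0.54 for all members, so the order of these member lists was unchanged.

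Per length, TMED2 and ARF4 were the most abundant transcripts of the 50 in both groups. TMED2 averaged 378 ± 3.5 TPM in PA + 3-IAA and 713 ± 109 TPM in PA + DMSO, and ARF4 averaged 406 ± 11.6 TPM in PA + 3-IAA and 661 ± 27.5 TPM in PA + DMSO (SD, n = 3 each). ARF4 was above TMED2 in every PA + 3-IAA library, whereas in PA + DMSO TMED2 was above ARF4 in replicates 1 and 2 and below it in replicate 3. At the other end stood SEC16A, with 12.3 ± 0.4 TPM in PA + 3-IAA and 17.1 ± 1.3 TPM in PA + DMSO, and COPG2, with 8.39 ± 0.74 TPM in PA + 3-IAA and 6.83 ± 0.36 TPM in PA + DMSO. STX5, the member with the largest fall, averaged 12.5 ± 1.0 TPM in PA + 3-IAA and 30.6 ± 5.2 TPM in PA + DMSO, close to SEC16A in PA + 3-IAA.

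The domain annotation in the deposited count table groups the members by structure. All 8 TMED proteins carry the EMP24_GP25L domain, and 5 of them fell and 1 rose. The 6 SEC23 and SEC24 proteins share the Sec23_trunk and Sec23_helical domains, and 5 fell. The Arf domain joins the outward and returning steps through SAR1A, SAR1B and ARF4, and all 3 fell. Coatomer_WDAD is shared by COPA and COPB2, of which COPA fell 1.58-fold and COPB2 by 1.12-fold, so a shared domain did not go with an equal change. The 2 proteins with the Cornichon domain, CNIH1 and CNIH4, held none of the falls.

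Split by the mean level over all 6 libraries, a choice made after the data were seen, the more abundant members held more of the falls. Of the 25 members with a mean of at least 100 TPM, 24 fell and none rose, with a median log2 fold change of -0.66, and the exception was CNIH4. Of the 25 below that level, 16 fell and 2 rose, with a median of -0.34. Among all genes tested, 35.2% of those with at least 100 TPM and 24.9% of the others were called lower. The shares called higher were 34.2% and 24.6%, so abundant genes were called more often in both directions. Their median log2 fold changes were -0.007 and 0.004. Across the 50 members this mean level and the log2 fold change had a Spearman correlation of -0.45, against -0.01 across all genes tested, as a description across genes whose level and fold change come from the same libraries.

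**Figure D5:**
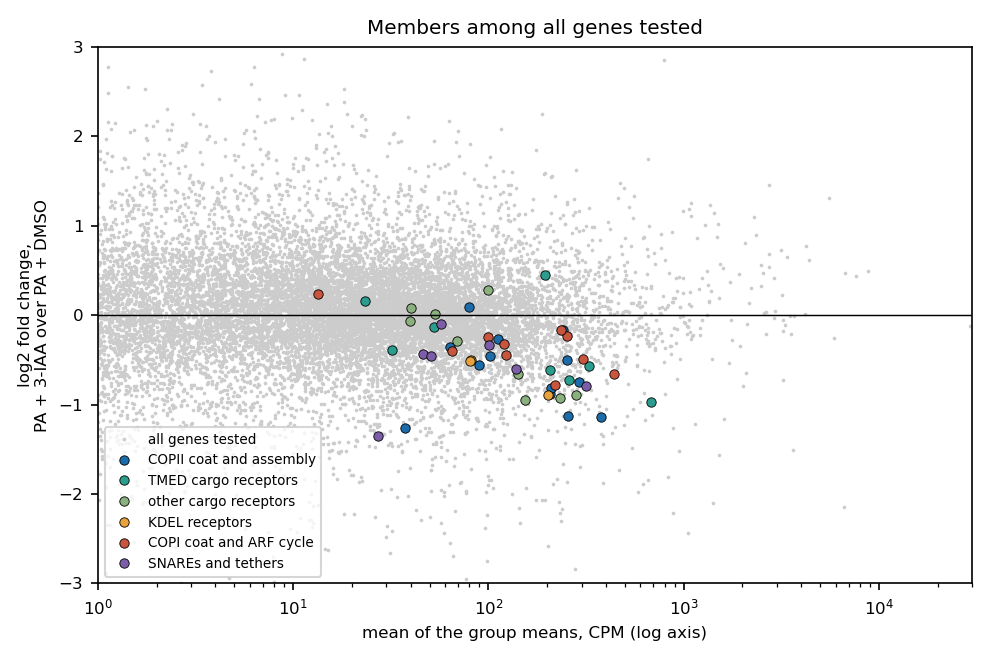
Mean of the group means in CPM (horizontal, log axis) against log2 fold change of PA + 3-IAA over PA + DMSO (vertical) for all genes tested (grey) and the members by role (coloured). Most members lie below 0 and within the spread of the grey points; genes beyond the axes are not drawn.

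Other genes of the same route, listed by function with earlier results of these data known, were less uniform. Of 57 listed, 54 were in the table and 53 were tested, and 22 fell and 11 rose, with a median of -0.08. The number that rose was 3 to 6 when any single library other than PA + DMSO replicate 3 was left out, and 13 without that one. Without PA + DMSO replicate 3, 30.9% of all genes tested were called higher, against 25.4% with all 6 libraries. The all-gene shares of the other fits are not given here, so no change particular to these genes is read from those numbers. In the list of COPII and ER exit sites, 2 of 11 fell and 4 rose, with a median log2 fold change of 0.21. CUL3, the ubiquitin ligase that enlarges COPII coats, rose 1.19-fold (adjusted p = 0.00375) and TMED8 rose 1.25-fold (adjusted p = 0.0126), while the exit-site protein SEC23IP fell 1.16-fold (adjusted p = 0.0138). In the list of COPI and ARF regulators, 5 of 9 fell and 2 rose, with a median of -0.15. ARFGAP3 and ARFGAP1, which end the ARF cycle on COPI vesicles, fell 1.76-fold and 1.5-fold. Their paralog ARFGAP2 did not pass (log2 -0.09, adjusted p = 0.332). By these medians the wider COPII list did not fall more than the wider COPI list, unlike the members.

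TRAPP subunits and GTPases split, with 5 of 16 lower and 4 higher. TRAPPC1, a small core subunit of the TRAPP tether, had 14.0, 12.7 and 13.7 CPM in PA + 3-IAA and 6.02, 6.27 and 9.10 CPM in PA + DMSO, a 1.88-fold rise (adjusted p = 0.000988). RAB1A, a GTPase that recruits USO1, fell 1.36-fold, as did TRAPPC13. RAB1B, the paralog of RAB1A, was called higher (log2 0.26, adjusted p = 0.0423), although its CPM overlapped between the groups. In the list of further SNAREs and tethers, 10 of 17 fell and 1 rose. The golgin GOLGA5 fell 1.77-fold (adjusted p = 0.000144), the stacking protein GORASP2 1.58-fold (adjusted p = 0.000145) and the SNARE YKT6 1.31-fold (adjusted p = 0.000327). Among all genes tested the shares were those given above, 25.8% lower and 25.4% higher.

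The authors' deposited table lists all 50 members. It marks 19 as down, none as up and 31 as stable, and 23 of the 31 have an adjusted p under 0.05 in the authors' deposited table. Its smallest marked change is 0.59 on the log2 scale, so TMED10 (-0.57 there) and TMED5 (0.44 there) are stable in the authors' deposited table. Its fold changes differed from those given here by at most 0.01 on the log2 scale. The shares of its 13259 genes marked down or up, or with an adjusted p under 0.05, are not given here. No difference of the members from other genes is therefore read from its marks.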

How the data were processed

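Per the submitters' processing notes, cutadapt 1.9, HISAT2 2.2.1, RSEM and DESeq2 were used; their roles, the build, the annotation and any use of strand are not given in the sources used here. Libraries were made from poly(A) RNA, per the labels. The count table deposited by the authors holds expected counts (estimated reads per gene) and TPM per library, and 2 emptied lines, not analysed here; its group means and lengths were not used. The authors' deposited comparison holds a mean normalized signal, log2 fold changes with their errors, a test score, and p-values, and was read only for the members. Of the members, 13 have fractional counts (any part above 0) in some library, so reads they share with other loci were divided by estimate: SEC23A, SEC24D, TMED2, TMED7, TMED10, MCFD2, SURF4, ERGIC2, CNIH1, COPA, COPB1, GOSR1 and STX5.

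Expected counts were rounded and tested across all genes with R 4.3.3 and edgeR 4.0.16 (its low-count filter filterByExpr, TMM normalization, the robust quasi-likelihood F test and Benjamini-Hochberg adjustment, with calls at an adjusted p under 0.05). An SE is |log2 fold change| over the root of F, and CPM uses TMM library sizes. Alternatives were DESeq2 1.42.0, limma 3.58.1 (voom, and log2(TPM + 1) with a trend), RLE or library-total scaling, no filter or a strict one (CPM of at least 1 in all 6 libraries), the replicate number as a block, and each library left out. At this depth 3 counts equal 0.128 to 0.188 CPM. The fits were tested on simulated data. Members and lists were chosen with earlier results of these data known. All members are named. Of the wider lists, up to 3 genes with the smallest p are named, and RAB1B and ARFGAP2 as paralogs of named genes. A gene that this rule names is not reported here.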

Additional observations from a re-analysis of the deposited data

How the results depend on the processing

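Of the 40 members called lower, 36 stayed so in all 14 alternatives; the others are COPB2, SAR1B, COPB1 and ERGIC2. TMED5 was called higher in all 14 and CNIH1 in 13. The members called lower numbered 37 to 41. Those called higher numbered 5 with library-total scaling, 4 on log2(TPM + 1) and 2 to 5 when single libraries were left out, the 5 without PA + DMSO replicate 3. Over all genes tested, 4820 were called higher and 3315 lower with library-total scaling, against 3963 and 4015 with TMM. With the strict filter 3743 of 13086 genes were called higher. COPI members called higher numbered 1 with library-total scaling, 1 with the strict filter and 0 to 1 with single libraries left out, and COPII members 0 to 1. The COPI median was -0.29 with library-total scaling and ranged from -0.42 to -0.32 with single libraries left out. With library-total scaling the median over all genes tested was 0.07, against 0.00 with TMM. The ratio of COPII to COPI in PA + 3-IAA over PA + DMSO was 0.803 with coatomer alone and 0.911 with coat subunits and SAR1 alone. Of the wider genes 3 to 13 were higher with single libraries left out, and 30.9% of all genes were called higher in the fit that gave 13. Members near 0 changed sign: CNIH4 to 0.011 with library-total scaling, ERGIC3 ranged from -0.021 to 0.069 with single libraries left out and was below 0 without PA + 3-IAA replicate 1, PA + DMSO replicate 1 or PA + DMSO replicate 3, and GOSR1 to 0.17 on log2(TPM + 1); the cause was not tested. Same-numbered libraries deviated together only weakly (correlations of 0.02 to 0.03, each library correlating best with its own number), so the replicate block was not taken as pairing; with it 38 members were lower and 2 higher, against 40 and 2.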

Other observations

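The ratio of expected count to TPM, set against the median of the same library, gives the transcript length that the authors' estimate implies for a gene. Between the groups this length moved by a median of 0.01 (log2, size only) over 15515 tested genes, and by more than 0.15 in 5.25% of them. Of the 50 members 2 moved by more than 0.15, a share near that of all genes. CNIH1 had a longer implied length in PA + 3-IAA (log2 difference 0.21, with the groups overlapping in 1 library) and GOSR1 a shorter one (-0.22, with no overlap). For CNIH1 the call was lost and for GOSR1 the sign changed between counts and TPM. Whether the use of isoforms changed was not tested.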
